A study of Mus musculus with 9 samples.

Results

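The mouse genome holds many genes for proteins with C2H2 zinc fingers, and many lie side by side in clusters; the 182 genes described here are the clustered ones among those named Zfp followed by a number. They were chosen by name and position alone: protein-coding, not of the Zfp36 family of RNA-binding proteins, and with at least 2 other such genes whose midpoints lay within 250 kb on the same chromosome. They are 182 of 366 Zfp genes and of 24187 genes in the 2 deposited tables together. By this rule 31 of them had exactly 2 neighbours, the least that the rule admits, and of the 184 Zfp genes left outside 49 had 1 neighbour and 135 had none. Their RNA was measured in macrophages grown for 6 days from the bone marrow of C57BL/6 mice of postnatal week 8 with the growth factor M-CSF. In all groups the cells were then kept for 6 h in complete medium: with lipopolysaccharide (LPS, a bacterial cell wall component, 500 ng/ml) and NCT503 (50 µM), an inhibitor of phosphoglycerate dehydrogenase, the enzyme that opens serine synthesis, with LPS (500 ng/ml) alone, or with neither (control). Each group had 3 RNA-seq libraries. There was no group with NCT503 and no LPS. Whether replicates came from separate cultures or mice is not stated in the labels, and p-values therefore cover only the spread between these libraries.

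A C2H2 finger is a short fold held by a zinc ion that reads a few bases of DNA, and arrays of fingers give each protein its own target sequence. Many such proteins carry a KRAB domain, which binds TRIM28 (KAP1), and TRIM28 recruits the histone methyltransferase SETDB1, HP1 proteins and the NuRD complex to silence the bound DNA. The best known targets are retrotransposons and imprinted genes, and the clusters grew by repeated duplication, so neighbouring genes resemble each other.

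The 182 genes formed 29 clusters on 13 chromosomes, where a cluster is a run of neighbouring midpoints at most 250 kb apart. The largest held 22 genes (chr13:67038596-67827002, coordinates of mm10 as in the files), and the next ones held 18 (chr17:21383748-22456689), 15 (chr7:29768552-30169750), 12 (chr17:32771236-33394641) and 11 genes (chr7:24081924-24515682). In translations of their GENCODE M21 transcripts 181 of the 182 contained at least 1 finger motif, with a median of 11 fingers and a range of 0 to 30, the exception being Zfp972. A KRAB pattern was found in 141 of 182 (77.5%), against 61 of 184 (33.2%) of the Zfp genes outside clusters and 1.46% of 21901 protein-coding genes. A KRAB domain that departs from the searched pattern was not counted, so these shares may be too low. Fingers were thus found in nearly all genes so named. Near-identical and overlapping genes can share reads. Of the 182 genes, 63 had more than 10% of their 50-base windows in transcripts of other genes, and 12 had more than 50%. These windows were matched on both strands, and overlapping genes were not left out, so the shares include overlap as well as likeness. For Zfp784, with 94.7% of its windows in other genes, the main match was Zfp865, which overlaps it on the opposite strand. Exons of 48 genes overlap another gene. The counting, whose strand setting is not given in the sources used here, could have mixed the reads of such genes.

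The promoters of 5 genes on which the results below turn are shown, as the 250 bases before the RefSeq start (GRCm38.p6, 5′ to 3′ on the gene's strand), with CpG dinucleotides, the sites of DNA methylation, in capitals. Zfp811, Zfp719 and Zfp658 were among the few genes higher with LPS, and Zfp667 and Zfp382 had large rises with NCT503.
Zfp811 (chr17:32809932-32810181, minus strand): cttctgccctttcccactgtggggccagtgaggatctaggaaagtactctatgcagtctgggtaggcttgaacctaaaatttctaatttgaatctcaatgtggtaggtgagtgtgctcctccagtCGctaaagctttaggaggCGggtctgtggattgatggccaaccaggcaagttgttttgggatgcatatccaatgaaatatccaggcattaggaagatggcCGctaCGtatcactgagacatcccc
Zfp719 (chr7:43579336-43579585, plus strand): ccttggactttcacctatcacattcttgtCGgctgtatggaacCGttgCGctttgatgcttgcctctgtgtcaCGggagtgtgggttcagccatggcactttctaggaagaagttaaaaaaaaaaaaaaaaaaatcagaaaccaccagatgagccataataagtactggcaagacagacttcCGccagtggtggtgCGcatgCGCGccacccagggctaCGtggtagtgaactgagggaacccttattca
Zfp658 (chr7:43562120-43562369, plus strand): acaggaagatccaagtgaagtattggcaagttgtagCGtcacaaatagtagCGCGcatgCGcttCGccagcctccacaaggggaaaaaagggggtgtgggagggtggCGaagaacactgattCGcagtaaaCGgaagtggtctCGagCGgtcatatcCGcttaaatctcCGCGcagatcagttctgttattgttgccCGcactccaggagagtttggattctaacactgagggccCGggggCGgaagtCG
Zfp667 (chr7:6286330-6286579, plus strand): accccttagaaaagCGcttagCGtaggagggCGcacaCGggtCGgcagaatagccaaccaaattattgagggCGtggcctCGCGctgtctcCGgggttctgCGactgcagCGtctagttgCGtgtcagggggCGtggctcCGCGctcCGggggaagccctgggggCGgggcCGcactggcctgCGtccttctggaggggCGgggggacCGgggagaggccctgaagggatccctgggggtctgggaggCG
Zfp382 (chr7:30121682-30121931, plus strand): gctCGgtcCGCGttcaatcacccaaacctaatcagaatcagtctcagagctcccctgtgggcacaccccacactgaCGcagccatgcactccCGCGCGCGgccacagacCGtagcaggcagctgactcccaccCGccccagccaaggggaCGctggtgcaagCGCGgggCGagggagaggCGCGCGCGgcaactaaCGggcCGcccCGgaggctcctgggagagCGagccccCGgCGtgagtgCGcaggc

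The 5 windows held 4, 9, 17, 22 and 25 CpG in the order shown. Windows were found for 161 of the 182 genes (174 windows, since some genes have several starts), with a median of 9 CpG against 6 over all 32851 windows of the same length. Each motif was searched on both strands, and matches of different motifs may overlap. The AP-1 site TGANTCA was in 2.30% of the windows of clustered Zfp genes against 6.75% of all windows, the cyclic AMP response element TGACGTCA in 4.60% against 1.55%, the interferon-stimulated response element GAAANNGAAA in 1.72% against 2.98%, and the NF-kB motif in 6.90% against 7.25%. The TATA box TATAAA was in 4.60% against 12.4%, the ZNF143-associated ACTACAA in 5.75% against 2.81%, the E-box CACGTG in 8.05% against 6.02%, and the amino acid response element TGATGNAA in 0 of 174 against 3.45%. None of the 8 motifs was in the 5 windows shown. These matches are descriptions of letters, not of binding.

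These genes were expressed at low levels. The files hold normalized reads, that is, the reads of a gene scaled by 1 size factor per library. Per kilobase of gene length, the median level over the 178 clustered Zfp genes in both tables was 10.9 normalized reads per kb in LPS with NCT503, 7.55 in LPS and 13.9 in control, against 44.0, 38.1 and 45.9 over 15045 protein-coding genes in the same groups. The Zfp genes outside clusters were low as well, with medians of 19.67, 12.45 and 22.03. The clustered ones took 0.0863 to 0.0988% of the reads in LPS with NCT503, 0.0576 to 0.0768% in LPS and 0.108 to 0.138% in control, and 164 to 174 of the 178 had a read in a given library. The most abundant per kb was Zfp263, at 367 normalized reads per kb in LPS with NCT503, 561 in LPS and 183 in control, followed by Zfp628, Zfp787, Zfp777, Zfp771 and Zfp768.

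Library totals were 20295862 to 23599685 reads, while size factors were 0.924 to 0.981 in LPS with NCT503, 0.733 to 0.868 in LPS and 1.25 to 1.46 in control, so the scaling bears on every comparison between groups. Macrophage markers were abundant (11 genes, summed 268815 to 340896 normalized reads in LPS with NCT503, 485375 to 555877 in LPS and 359695 to 463689 in control). The summed 9 fibroblast markers were 16647 to 42275, 16479 to 35281 and 5633 to 25938 in the same order of groups, with 5 of 9 higher and none lower in LPS against control, and those of 7 neutrophil markers were 271 to 572, 2515 to 5986 and 4196 to 7076, with 7 of 7 lower in LPS with NCT503 against LPS, and 1 higher and 3 lower in LPS against control. In LPS with NCT503 against LPS 6 of 11 macrophage markers, 3 of 9 fibroblast markers and 6 of 8 T and NK markers were also lower. Lower as well were 5 of 5 mast and basophil markers and 1 of 5 dendritic markers (Ccr7), while 1 fibroblast marker was higher. Over all genes tested 16.9% rose and 15.7% fell in this comparison. In LPS against control 5 of 11 macrophage markers, 3 of 5 dendritic markers, 2 of 5 mast and basophil markers and 2 of 8 T and NK markers were higher, and 1 macrophage and 1 T and NK marker lower. Over all genes tested 20.5% rose and 21.4% fell in that comparison. The summed 8 T and NK markers were 91.6 to 255 in LPS with NCT503, 520 to 1168 in LPS and 196 to 303 in control, and the summed 5 mast and basophil markers 309 to 336, 909 to 1319 and 702 to 841. Of 3 B markers tested 1 was higher and 1 lower in LPS against control and 1 lower in LPS with NCT503 against LPS. In LPS with NCT503 against control 6 of 7 neutrophil, 4 of 5 mast and basophil and 4 of 11 macrophage markers were lower. So were 2 of 8 T and NK, 2 of 3 B and 1 of 9 fibroblast markers. Higher were 3 of 9 fibroblast, 3 of 4 dendritic and 1 of 3 B markers. Over all genes tested 19.7% fell and 20.7% rose there. Of the erythroid markers none passed in any comparison. The part of these markers in the results below was not tested. In these bulk libraries fewer cells of a type and less RNA per cell cannot be told apart.

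With LPS most of the clustered Zfp genes had less RNA than in control. A gene was said to rise or fall if its log2(normalized reads + 1) differed at an adjusted p under 0.05 in limma, with p-values adjusted over all genes that averaged at least 1 normalized read in a group, which 176 of the 182 did in this comparison. Of these, 92 fell and 10 rose, while over all 19975 genes tested 21.4% fell and 20.5% rose. Among 2948 other protein-coding genes whose length and level lay within the 10th to 90th percentile of those of the clustered Zfp genes, 39.7% fell and 13.1% rose, so genes of this length and level fell more often than they rose as well. The median log2 fold change of LPS over control was −0.93 over the clustered Zfp genes, −0.49 over the genes of like length and level, −0.47 over the Zfp genes outside clusters, of which 70 of 172 fell and 22 rose, and −0.05 over all genes tested. Fold changes of genes with few reads are understated on this scale. Without control 2 the counts were 60 lower and 6 higher, where 15.7% of all genes fell and 16.8% rose. Under library totals alone (CPM) they were 142 lower and 4 higher, where 42.8% of all genes fell and 10.5% rose.

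**Figure D1:**
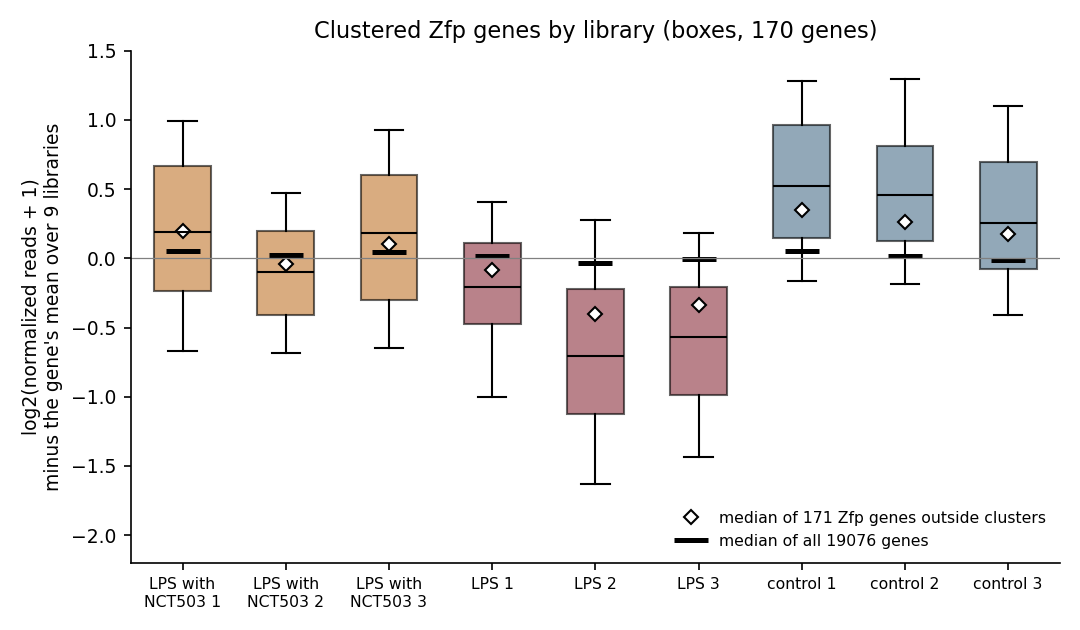
Level of 170 clustered Zfp genes in each library, as log2(normalized reads + 1) minus the gene's own mean over the 9 libraries; boxes span the quartiles with the median as a line, whiskers the 10th to 90th percentile. The box medians were 0.19, −0.10 and 0.18 in LPS with NCT503, −0.21, −0.70 and −0.57 in LPS, and 0.53, 0.46 and 0.26 in control, while the median of all genes (bars) stayed within −0.04 to 0.06 and that of the Zfp genes outside clusters (diamonds) within −0.41 to 0.35.

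The plot of levels by library shows all 3 LPS libraries below and all 3 control libraries above the genes' own means. LPS 1 lay nearer to the libraries of LPS with NCT503 than LPS 2 and LPS 3 did.

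The largest falls and rises named here and below were picked among genes that passed without overlap between the libraries of the 2 groups. Over all 19975 genes tested 5284 lay lower in LPS without overlap, as did 103 of the 176 clustered Zfp genes. The largest fall among genes with at least 20 normalized reads in the higher group was that of Zfp493, a KRAB gene of the large chromosome 13 cluster (chr13:67779693-67792512). It had 1.15, 1.36 and 2.62 in LPS, against 31.4, 28.7 and 22.4 in control, in normalized reads of replicates 1, 2 and 3, as are the values of single libraries that follow (log2 fold change −3.43 ± 0.43, adjusted p = 6.27e-05 in limma, with the standard error). Every LPS library was far below every control library. Zfp667, a KRAB gene first described in rodent heart under the name Mipu1, had 0, 13.6 and 1.31 in LPS, against 34.2, 30.8 and 24.0 in control (log2 −3.25 ± 0.79, adjusted p = 0.00638). The LPS libraries were uneven, with LPS 2 highest, but all below the control libraries. Zfp763, in the chromosome 17 cluster of 12, had 8.06, 6.82 and 2.62 in LPS, against 60.1, 56.7 and 49.7 in control (log2 −3.15 ± 0.41, adjusted p = 7.76e-05). Zfp398, which has no KRAB pattern here, had 15.0, 13.6 and 23.6 in LPS, against 171, 125 and 115 in control (log2 −2.92 ± 0.30, adjusted p = 1.17e-05). For both, the LPS and control libraries stood far apart with no overlap. Zfp810 (−2.76), Zfp873 (−2.71), Zfp971 (−2.70) and Zfp976 (−2.51) completed the 8 largest falls at that level, although 51.1% of the 50-base windows of Zfp971 and 20.4% of those of Zfp976 occur in other genes. Below that level, Zfp2 had no read in any LPS library and 57 reads over the control libraries, at least 10.8-fold lower in LPS if 3 counts over the group are taken as the floor. It was singled out after its values were seen, as was Zfp809, which binds a retroviral primer binding site and recruits TRIM28. Zfp809 had 69.1, 38.2 and 31.5 in LPS, against 146, 111 and 82.5 in control (log2 −1.31 ± 0.33, adjusted p = 0.00709), all LPS libraries being below all control libraries.

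The falls were spread over the genome. The median fold change was negative in 28 of 29 clusters, and 26 clusters held at least 1 gene that fell. In the chromosome 13 cluster 14 of 22 genes fell and 2 rose, in the chromosome 7 cluster of 15 it was 9 and 1, in the chromosome 17 cluster of 12 it was 7 and 1, and in the chromosome 17 cluster of 18 it was 6 and 0. Of the 39 other protein-coding genes tested inside the cluster spans, 12 rose, 7 fell and the median was 0.27; the difference from the clustered Zfp genes was not tested. Of 10 other genes with C2H2 fingers inside the spans 1 fell and none rose.

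**Figure D2:**
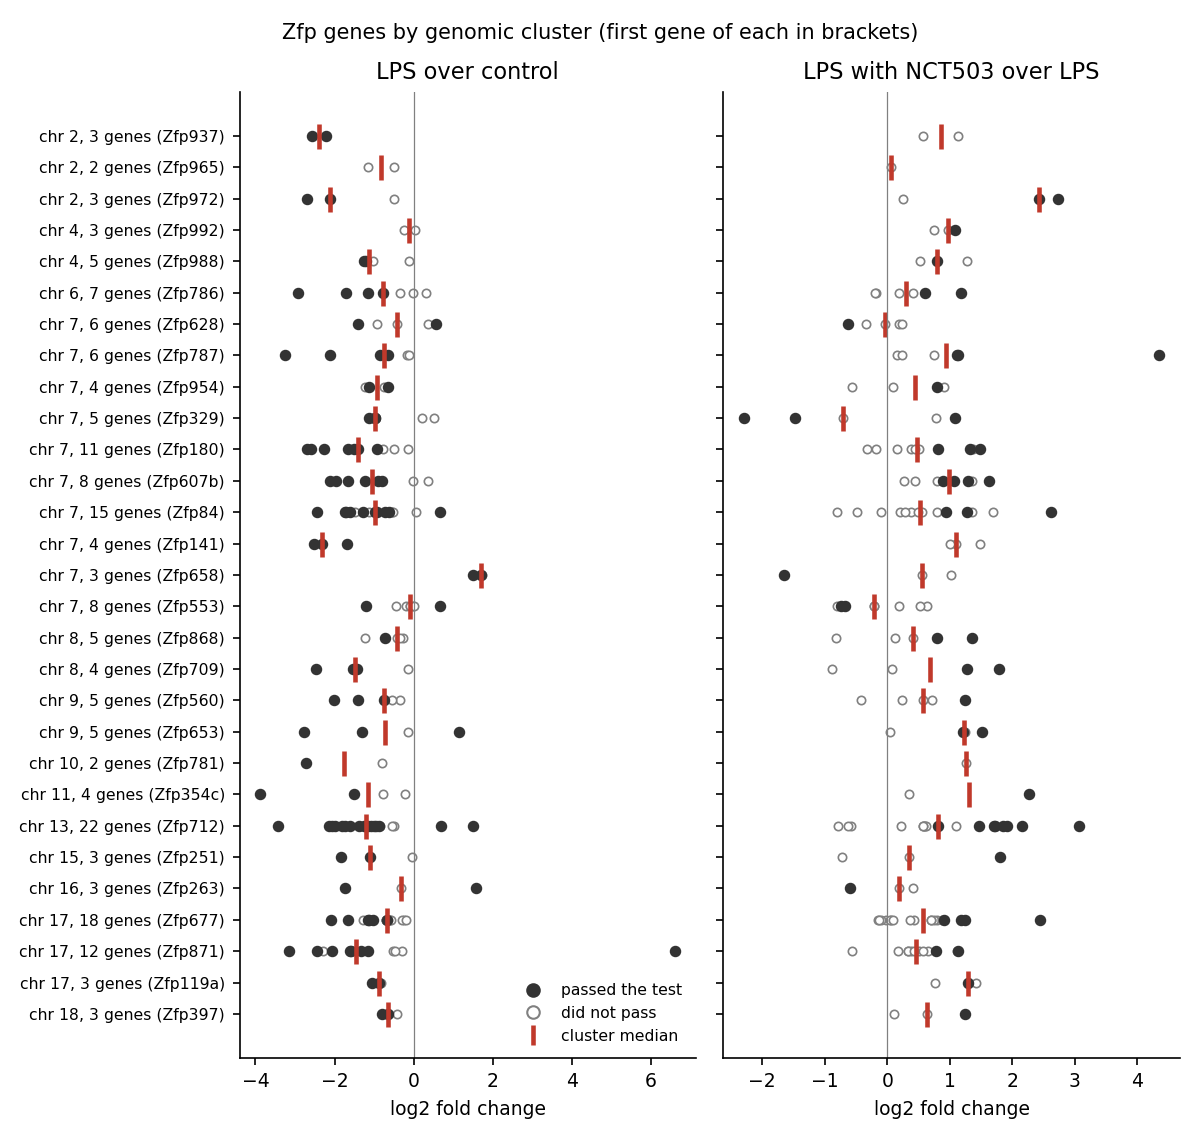
Log2 fold change of each clustered Zfp gene tested, in rows by cluster, for LPS over control (left) and LPS with NCT503 over LPS (right); filled points had an adjusted p under 0.05 in limma and red bars are cluster medians. With LPS 28 of 29 cluster medians lay below 0, the exception being the cluster of Zfp658, and with NCT503 26 of 29 lay above 0.

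The fold change differed with the level of the gene. Among 46 genes with a mean under 20 normalized reads in the libraries compared the median was −1.36 with 22 lower and none higher, among 83 with 20 to 100 it was −1.03 with 51 lower and 2 higher, and among 47 with at least 100 it was −0.44 with 19 lower and 8 higher. Over the same levels the other protein-coding genes had medians of −0.21, −0.54 and 0.10, with 14.5%, 41.0% and 25.3% lower and 8.41%, 13.6% and 32.8% higher. Across the 176 genes the fold change had a Spearman correlation of 0.41 with the mean level, −0.10 with the number of fingers and −0.09 with gene length, given as descriptions across genes that share libraries. The 136 genes with a KRAB pattern had a median of −1.02 (73 lower, 6 higher) and the 40 without one −0.64 (19 lower, 4 higher), and the median level of the 2 sets also differed, at 42.0 and 121 normalized reads. Genes without the pattern may still carry a KRAB domain that the search missed. All 8 genes of the chromosome 7 cluster with Zfp607b were without the pattern, and 6 of them fell.

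**Figure D3:**
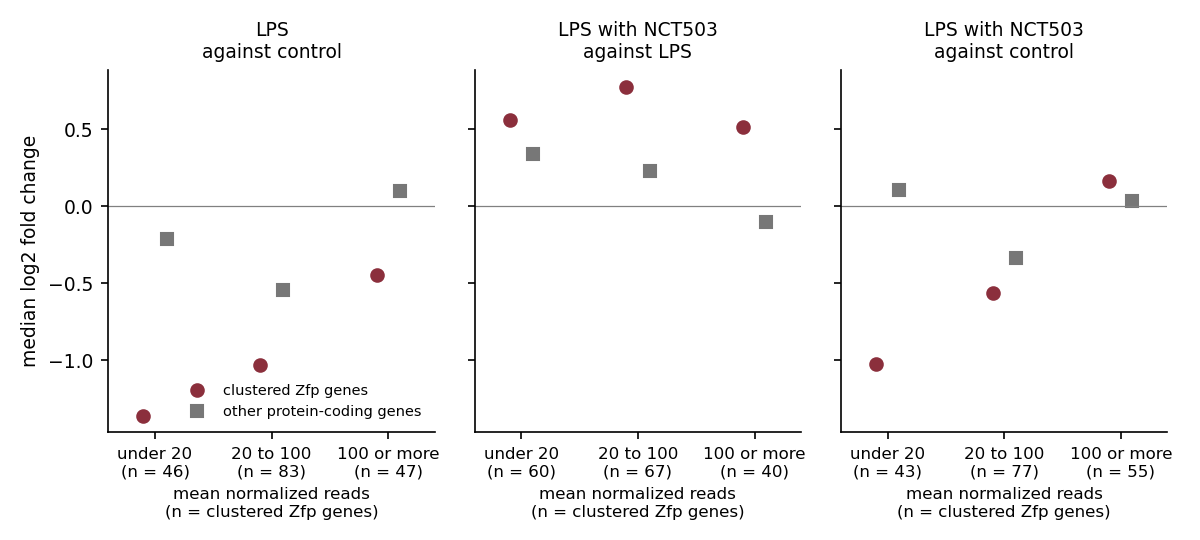
Median log2 fold change of clustered Zfp genes (circles) and of other protein-coding genes (squares) by the mean normalized reads in the libraries compared, for the 3 comparisons. The circles lay below the squares at every level with LPS (−1.36, −1.03 and −0.44 against −0.21, −0.54 and 0.10) and above them at every level with NCT503 (0.56, 0.78 and 0.51 against 0.34, 0.23 and −0.10).

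The 10 genes that rose with LPS were led by Zfp811, a KRAB gene with 13 fingers in the chromosome 17 cluster of 12 (chr17:32795676-32809853, minus strand). It had 193, 83.2 and 166 in LPS with NCT503, 372, 165 and 140.3 in LPS, and 2.73, 0 and 1.60 in control (log2 6.62 ± 0.53, adjusted p = 1.77e-06 for LPS over control). Every library with LPS was far above every control library, and LPS with NCT503 and LPS overlapped. In reads, the LPS libraries held 551 and the control libraries 6, which is 161 times as many after scaling by the size factors. Only 0.65% of its 50-base windows occur in other genes. Of its neighbours within 100 kb, looked at after these values were seen, Zfp871 (−0.30) and Zfp799 (−0.52) did not pass and Zfp870 fell (−1.14). The small RNA genes Gm25555 and Gm23294 inside the body of Zfp811 rose. Gm25555 had 27 reads over the LPS libraries and none in control, at least 15.8-fold higher in LPS with 3 counts over the group as the floor, and Gm23294 had 6 reads and none, at least 3.5-fold higher. So did the antisense RNA Gm26693 rise (log2 2.08; normalized reads of 9.40 ± 5.88 in LPS, against 1.43 ± 1.19 in control, SD, n = 3 libraries), whose start at position 32810144 on the plus strand lies within the Zfp811 promoter window shown above. Gm25555 and Gm23294 lie on the same strand as Zfp811, so their reads may be mixed with those of Zfp811 under any strand setting. Reads of Gm26693, on the other strand, may be mixed as well, since the strand setting of the counts is not known.

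The cluster on chromosome 7 with Zfp658, Zfp719 and Zfp819 (chr7:43562256-43618285) was the one whose median rose, at 1.70. Zfp719 had 296, 127 and 259.8 in LPS with NCT503, 203, 131 and 117 in LPS, and 49.2, 42.0 and 42.5 in control (log2 1.70 ± 0.26, adjusted p = 0.000253 for LPS over control). Zfp658 had 39.8, 14.6 and 37.9 in LPS with NCT503, 141, 66.8 and 80.0 in LPS, and 49.9, 23.1 and 26.4 in control (log2 1.52 ± 0.36, adjusted p = 0.00546 for LPS over control, a call that was lost under CPM scaling). For both, every LPS library was above every control library. Zfp819, a gene studied mainly in mouse germ and pluripotent cells, had 7.14, 1.04 and 18.4 in LPS with NCT503, against 5.76, 4.09 and 0 in LPS, against no read in control, and its difference between LPS and control did not pass (log2 1.72 ± 0.73, adjusted p = 0.0822). Of 7 other genes tested within 100 kb of the cluster, looked at after these values were seen, 5 rose with LPS, beside 20.5% of all genes tested. Siglece, a sialic acid receptor of myeloid cells, had normalized reads of 6281 ± 1151 in LPS, against 369.8 ± 111 in control (SD, n = 3 libraries; log2 4.12 ± 0.23, adjusted p = 1.07e-07). Ceacam18 had 35 reads over the LPS libraries and none in control, at least 20.4-fold higher. Cd33, another sialic acid receptor, had 0.80, Ctu1 1.72 and Iglon5 1.66 on the log2 scale, while Vsig10l (0.72) and Gm36546 (1.12) did not pass.

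Zfp263, the most abundant of the clustered Zfp genes, had 1883, 1387 and 1709 in LPS with NCT503, 3279, 2166 and 2159.7 in LPS, and 882, 857 and 747 in control (log2 1.59 ± 0.18, adjusted p = 3.14e-05 for LPS over control). The groups were ordered LPS, LPS with NCT503 and control with no overlap. Zfp456 (log2 1.49), with 65.5% of its windows in other genes, and Zfp653 (log2 1.16, lost under CPM scaling) rose in all LPS libraries over all control libraries. The rises of Zfp771 (0.66), Zfp429 (0.69), Zfp568 (0.67), which silences a placental promoter of Igf2 in mouse embryos, and Zfp628 (0.57) were small and turned negative under CPM scaling, at −0.04, −0.01, −0.03 and −0.13. None of these 4 passed without control 2, and each was also lost without 1 or more LPS libraries (LPS 2 for Zfp771, LPS 3 for Zfp429, LPS 1 or 3 for Zfp568, LPS 2 or 3 for Zfp628). The calls of Zfp568 and Zfp628 held under 9 of 17 alternatives each, and were also lost under scalings other than CPM.

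**Figure D4:**
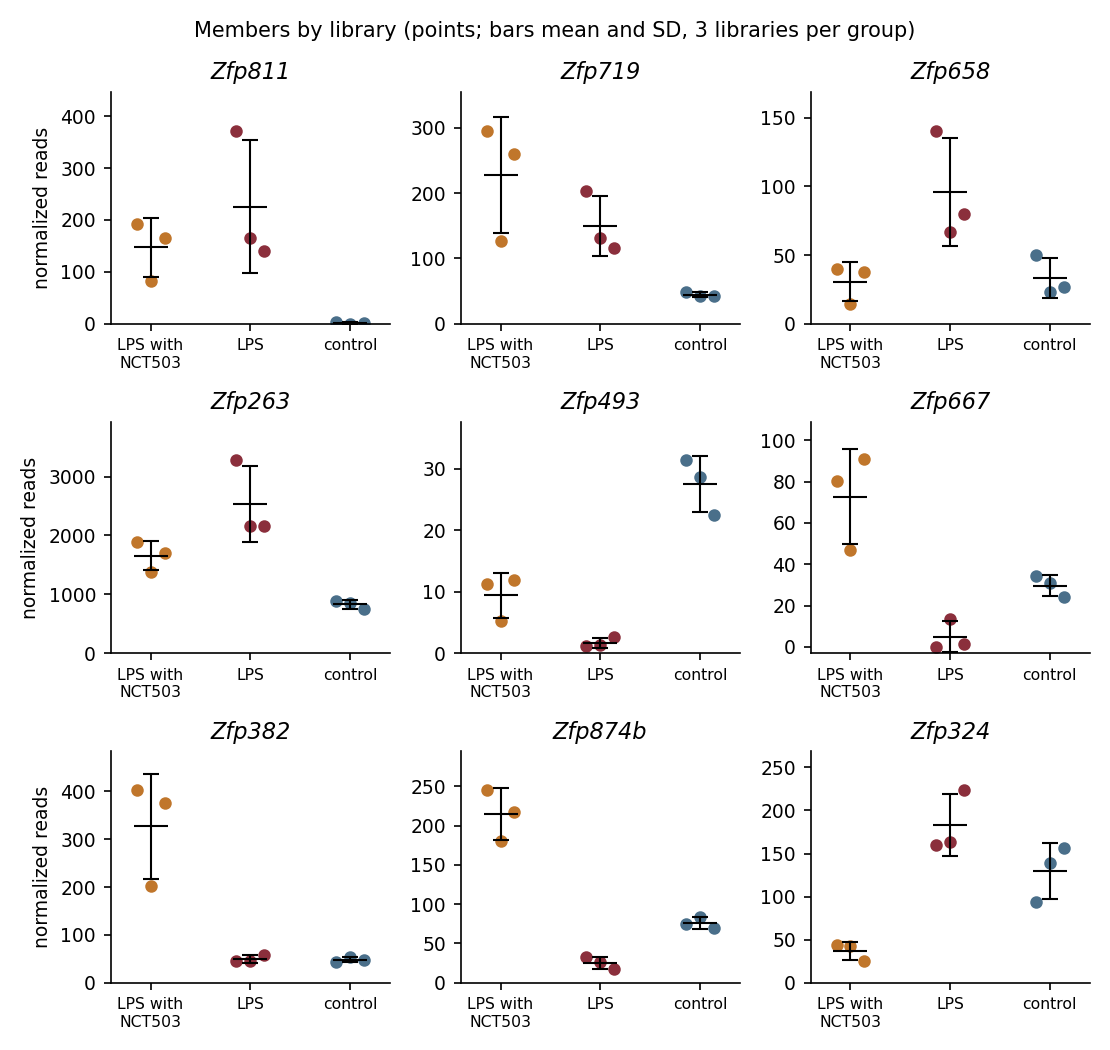
Normalized reads of 9 clustered Zfp genes in each library (points) with the mean and SD of 3 libraries per group, on linear axes that differ between genes. Zfp811, Zfp719, Zfp658 and Zfp263 were higher in LPS than in control, Zfp493 and Zfp667 lower, and Zfp667, Zfp382 and Zfp874b were higher and Zfp324 lower in LPS with NCT503 than in LPS.

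With NCT503 added to LPS, more of the clustered Zfp genes rose than fell. Of 167 tested, 46 rose and 7 fell in LPS with NCT503 against LPS, while over all 19795 genes tested 16.9% rose and 15.7% fell, and among 3156 genes of like length and level 21.4% rose and 13.1% fell. Among the clustered Zfp genes these shares were 27.5% and 4.19%, and the differences from the genes of like length and level were not tested. The median log2 fold change was 0.58 over the clustered Zfp genes, 0.20 over the genes of like length and level, 0.52 over the Zfp genes outside clusters, of which 44 of 173 rose and 20 fell, and 0.08 over all genes. The count depended on single libraries, with 23 and 21 higher without LPS with NCT503 1 and 3, 24 without LPS 2 and 29 without LPS 3, and 4, 3, 3 and 3 lower. Over all genes the share that rose was 12.6%, 11.2%, 12.8% and 12.5% and the share that fell 12.4%, 10.7%, 11.8% and 10.8% in the same order. Under CPM scaling the counts were 66 higher and 3 lower, where 22.3% of all genes rose and 10.8% fell. This comparison shares its LPS libraries with that of LPS against control, so the values of the 2 comparisons are not independent.

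Among genes with at least 20 normalized reads in the higher group Zfp667 had the largest rise, with 80.5, 46.8 and 90.9 in LPS with NCT503, against 0, 13.6 and 1.31 in LPS (log2 4.35 ± 0.76, adjusted p = 0.00117). Every library with NCT503 was above every LPS library and also above the 24.0 to 34.2 normalized reads in control. Zfp874b, in the chromosome 13 cluster, had 246, 180.0 and 218 in LPS with NCT503, against 32.3, 25.9 and 17.1 in LPS (log2 3.07 ± 0.29, adjusted p = 1.6e-05). Its neighbour Zfp874a had 198, 115 and 221 in LPS with NCT503, against 43.8, 38.2 and 31.5 in LPS (log2 2.16 ± 0.29, adjusted p = 0.00022). Neither overlapped between the groups, and 29.7% and 7.79% of their windows occur in other genes. Zfp382, a KRAB gene with 9 fingers, had 404, 202 and 376 in LPS with NCT503, 44.9, 46.4 and 59.0 in LPS, and 43.0, 53.9 and 48.1 in control (log2 2.63 ± 0.29, adjusted p = 4.89e-05 for LPS with NCT503 over LPS). Its LPS and control libraries overlapped (0.05 ± 0.26, adjusted p = 0.894 for LPS over control), and LPS with NCT503 2 was the lowest of the libraries with NCT503. Zfp948, in the chromosome 17 cluster of 18, had 160.0, 136 and 210.0 in LPS with NCT503, 46.1, 28.6 and 19.7 in LPS, and 60.1, 52.5 and 33.6 in control (log2 2.44 ± 0.33, adjusted p = 0.000195 for LPS with NCT503 over LPS, and −0.65 ± 0.36, adjusted p = 0.174 for LPS over control). Every library with NCT503 was above every library of both other groups. Zfp971 (2.73), Zfp931 (2.42) and Zfp729a (1.92) completed the 8 largest rises at that level, with 51.1%, 23.3% and 14.9% of their windows in other genes. Below it, and named after its values were seen, Zfp2 had 13 reads over the libraries of LPS with NCT503 and none in LPS, at least 3.6-fold higher. Zfp809 had 144, 114 and 123 in LPS with NCT503 (log2 1.51 ± 0.31, adjusted p = 0.00308), all above the LPS libraries given before.

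The 7 genes that fell with NCT503 were Zfp324, Zfp446, Zfp658, Zfp771, Zfp688, Zfp865 and Zfp263. Zfp324 had 43.8, 42.7 and 24.9 in LPS with NCT503, 160.1, 164 and 224 in LPS, and 93.6, 139 and 156 in control (log2 −2.29 ± 0.29, adjusted p = 0.000121 for LPS with NCT503 over LPS). It was below both other groups in every library. Its neighbour Zfp446, next to it on chromosome 7, had 22.4, 14.6 and 26.0 in LPS with NCT503, 54.1, 53.2 and 72.1 in LPS, and 47.8, 51.8 and 53.7 in control (log2 −1.48 ± 0.32, adjusted p = 0.00458 for LPS with NCT503 over LPS). Again every library with NCT503 was the lower. Zfp658 fell by 1.65 on the log2 scale (−1.65 ± 0.41, adjusted p = 0.0102), to values that overlapped control. The other falls were between −0.74 and −0.59, and that of Zfp263 (−0.59 ± 0.21, adjusted p = 0.0479) was lost under 12 of 17 alternatives. Those of Zfp771, Zfp688 and Zfp865 were each lost without LPS with NCT503 1 or 3, without LPS 2 or 3, and under CPM scaling.

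Of the 29 clusters, 26 had a positive median and 21 held a gene that rose. The chromosome 13 cluster had 8 genes that rose among 20 tested and none that fell, the chromosome 7 cluster of 8 with Zfp607b had 4 of 8, and the chromosome 17 cluster of 18 had 4 of 18. The 3 clusters with a negative median were those with Zfp628, with Zfp324 and Zfp446, and with Zfp771 and Zfp768, all on chromosome 7, and they held 5 of the 7 genes that fell. The other 38 protein-coding genes tested inside the spans had 6 higher, 10 lower and a median of −0.43. With a KRAB pattern 35 of 127 rose and 3 fell, and without one 11 of 40 rose and 4 fell.

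Set against control, macrophages given LPS with NCT503 still had more clustered Zfp genes lower than higher. Of 175 tested, 48 fell and 18 rose, while over all 19930 genes tested 19.7% fell and 20.7% rose, and among 3139 genes of like length and level 35.0% fell and 17.0% rose. The share that fell, 27.4%, was thus no higher than among genes of like length and level. The median log2 fold change was −0.41, against −0.33 over those genes, −0.14 over the Zfp genes outside clusters and 0.05 over all genes. Under CPM scaling the split was 82 lower and 8 higher, where 33.0% of all genes fell and 12.3% rose. Without LPS with NCT503 2 there were 30 higher (23.1% of all genes), without LPS with NCT503 3 there were 10 (15.9%), and without control 2 there were 27 lower (13.6%). This comparison shares its control libraries with the first. The level mattered here too, with medians of −1.02, −0.56 and 0.17 for genes with means under 20, of 20 to 100 and of at least 100 normalized reads, against 0.11, −0.34 and 0.03 in the other protein-coding genes.

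Among genes with at least 20 normalized reads in the higher group Zfp811 rose most in this comparison (log2 6.03 ± 0.53, adjusted p = 1e-05), followed by Zfp382 (2.67) and Zfp719 (2.24). Zfp948 (1.79), Zfp874b (1.48), Zfp607a (1.24), Zfp667 (1.23) and Zfp653 (1.21) followed, of which the rises of Zfp607a and Zfp667 were lost under CPM scaling, and that of Zfp667 also without LPS with NCT503 3 and in a fit over all 9 libraries. Zfp273, at the end of the chromosome 13 cluster, had 4.08, 5.20 and 4.33 in LPS with NCT503, 8.06, 8.18 and 6.56 in LPS, and 35.5, 42.0 and 32.9 in control (log2 −2.77 ± 0.35, adjusted p = 0.000126 for LPS with NCT503 over control). Both groups with LPS were low and overlapped in none of their libraries with control. Zfp961 (−2.42), Zfp763 (−2.01), Zfp101 (−1.86), Zfp955b (−1.82), Zfp324 (−1.79), Zfp398 (−1.75) and Zfp128 (−1.69) completed the 8 largest falls at that level, picked among genes without overlap between the groups. Over all 19930 genes tested 4963 lay lower in LPS with NCT503 without overlap, as did 68 of the 175 clustered Zfp genes. The call of Zfp955b, with 49.8% of its windows in other genes, was lost in the fit over all 9 libraries. At lower levels, and named after their values were seen, Zfp30 (−2.56), Zfp882 (−2.34), Zfp108 (−2.04), Zfp442 (−1.93) and Zfp773 (−1.71) fell by as much as genes of this list. Zfp819 rose, with 25 reads over the libraries of LPS with NCT503 and none in control, at least 12-fold higher.

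Outside these extremes, the most abundant genes per kb, over all or within a cluster of at least 5, showed the range of the group. Zfp787 and Zfp768 passed in no comparison, with fold changes between −0.21 and 0.16, and Zfp777 did not either (−0.01, 0.42 and 0.41 for LPS over control, LPS with NCT503 over LPS and LPS with NCT503 over control). In LPS against control, however, Zfp787 passed under 2 of 17 alternatives and Zfp768 and Zfp777 under 1 each. Zfp777 also passed under 2 in LPS with NCT503 against LPS. In LPS with NCT503 against control Zfp787 and Zfp768 passed under 1 each. Zfp146 in the chromosome 7 cluster of 15 had 223, 221 and 229 in LPS with NCT503, 160.1, 72.3 and 68.2 in LPS, and 350.5, 329.7 and 196 in control, and fell with LPS (−1.60 ± 0.33, adjusted p = 0.00233) and rose with NCT503 (1.27 ± 0.31, adjusted p = 0.00816). The LPS libraries were the lowest, and the other groups overlapped. Zfp110, in the chromosome 7 cluster with Zfp324 and Zfp446, had 478, 291 and 433 in LPS with NCT503, 281, 128 and 177 in LPS, and 414, 379 and 316 in control, and fell with LPS (−0.98 ± 0.26, adjusted p = 0.0101) and rose with NCT503 (1.08 ± 0.29, adjusted p = 0.0155). Zfp984 on chromosome 4 fell with LPS (−1.26) and rose with NCT503 (0.79), with 54.5% of its windows in other genes. Zfp871 (1.13), Zfp869 (1.36) and Zfp180 (0.81) rose with NCT503 and did not pass with LPS, where they had −0.30, −0.35 and −0.48. The rises of Zfp110, Zfp984, Zfp871 and Zfp180 with NCT503 were each lost without LPS with NCT503 1 or 3 and without LPS 2 or 3. Zfp426 (−0.74) and Zfp53 (−0.68) fell with LPS, calls lost without LPS 2 or 3 and without control 1 or 2, and for Zfp53 also without control 3. These falls and the rise of Zfp984 were also lost under quantile normalization.

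The RNA for proteins through which KRAB zinc fingers act was measured for a list of 15 genes. With LPS 9 fell, 1 rose and 5 did not pass (median −0.80), beside the 21.4% and 20.5% of all genes that fell and rose. Trim28 itself passed in no comparison, with normalized reads of 2475 ± 483 in LPS with NCT503, 2300.4 ± 363 in LPS, and 2715 ± 397 in control (SD, n = 3) and fold changes on the log2 scale of −0.24 for LPS over control and 0.10 for LPS with NCT503 over LPS. Setdb1, the H3K9 methyltransferase, had 259.6 ± 45.3 in LPS, against 723 ± 50.4 in control (log2 −1.48 ± 0.17, adjusted p = 3.28e-05). The HP1 gene Cbx3 (−2.07), the maintenance DNA methyltransferase Dnmt1 (−1.22) and the NuRD remodeller Chd3 (−1.24) fell, and the histone deacetylase Hdac1 rose (1.67). The HP1 gene Cbx5 (−0.80), the deacetylase Hdac2 (−0.60, lost without control 2) and the SETDB1 partner Atf7ip (−0.44, lost without LPS 3 or any 1 control library) fell as well. With NCT503 3 of the 15 rose, the de novo DNA methyltransferases Dnmt3a, at 8643 ± 426 in LPS with NCT503, 2312 ± 78.7 in LPS, and 4347 ± 246 in control (log2 1.90 ± 0.15, adjusted p = 5.6e-06 for LPS with NCT503 over LPS), and Dnmt3b (1.58), and Chd3 (0.79). Hdac1 (−1.16), Chd4 (−1.04) and Uhrf1 (−0.93), which guides Dnmt1 to replicated DNA, fell. These 3 of 15 higher and 3 of 15 lower stand beside 16.9% and 15.7% of all genes. Against control, 9 of the 15 were lower and 2 higher in LPS with NCT503, beside 19.7% and 20.7% of all genes, with Setdb1 at −1.80 and Dnmt3a at 0.99 on the log2 scale. The HP1 gene Cbx1 was lower here and passed in neither other comparison (−0.51), a call lost without LPS with NCT503 3 and without control 2 or 3.

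A second list held 11 genes of the HUSH complex and related silencing factors. With LPS 4 rose and 5 fell, beside the same 20.5% and 21.4% of all genes. Daxx, a chaperone of histone H3.3, had 15989 ± 2692 in LPS, against 1621 ± 18.1 in control (log2 3.29 ± 0.16, adjusted p = 3.17e-08), while its partner Atrx fell (−1.46). Morc3 rose (0.58, but −0.13 under CPM scaling) and Morc2a fell (−0.55). The call of Morc3 held under only 7 of 17 alternatives. It was lost under other scalings, in edgeR, in the fit over all 9 libraries, and without LPS 1 or 3 or control 2 or 3. That of Morc2a was lost without LPS 2 or 3 and without any 1 control library. Of the HUSH subunits Mphosph8 fell (−1.10), Pphln1 rose (0.95, lost under CPM scaling) and Fam208a did not pass (−0.31). Of the H3K9 methyltransferases Ehmt1 (−1.11) and Suv39h2 (−1.43) fell and Ehmt2 rose (0.86, lost under CPM scaling and −0.06 under quantile normalization). With NCT503 Mphosph8 rose (0.96), and Daxx (−1.82), Pphln1 (−0.74), Ehmt2 (−1.33) and Suv39h1 (−0.78) fell. The calls of Mphosph8, Pphln1 and Suv39h1 were lost without LPS with NCT503 3 or LPS 3, that of Pphln1 also without LPS 1 and that of Suv39h1 without LPS with NCT503 1, and those of Pphln1 and Suv39h1 also under CPM scaling. Over all genes 16.9% rose and 15.7% fell here. Against control 4 of the 11 were lower and 1, Daxx, was higher in LPS with NCT503 (1.46), beside 19.7% and 20.7% of all genes. Of the 4, the call of Ehmt2 (−0.47, adjusted p = 0.0466 in limma) was lost under 6 of 17 alternatives. That of Suv39h2 (−1.10) was lost without control 1 or 2. Those of Ehmt1 (−1.29) and Suv39h1 (−1.11) held under all 17.

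The authors' deposited tables give the same genes with their own test: 83 of 181 clustered Zfp genes lower and 10 higher with LPS at an adjusted p under 0.05, and 44 of 179 higher and 7 lower with NCT503. In the authors' deposited table the median log2 fold change was −0.91 over these genes with LPS and 0.57 with NCT503, against −0.08 and 0.11 over all genes of each table.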

How the data were processed

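Reads were aligned with TopHat2 to mm10, per the submitters' processing notes; for versions, read counter, annotation and strand setting, nothing is given in the sources used here. One table covers LPS against control and the other LPS with NCT503 against LPS. By the file headers and the values, each deposited table holds a signal for every library, the reads of a gene scaled by that library's size factor, beside the authors' own log2 fold change and p-value. Whole reads were recovered from 100% of values in all 12 library columns (tolerance 0.001), and the LPS reads were the same in both tables. The first 2 comparisons used each table's values; per-library values and LPS with NCT503 against control used the 9 libraries normalized together over the 21434 shared genes.

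Genes averaging 1 normalized read or more in a group entered limma-trend (limma 3.58.1, R 4.3.3, robust) on log2(value + 1), with Benjamini-Hochberg adjustment over all of them and a threshold of 0.05. The limma fits were tested on simulated counts in which only large changes were planted, and only in genes with many reads. Small changes and genes with few reads were thus not covered. Alternatives used edgeR 4.0.16 and DESeq2 1.42.0 on the recovered reads, other scalings, pseudocounts, filters and member rules, and each library left out. Finger motifs (2 cysteines and 2 histidines at fixed spacing) and KRAB patterns (at least 10 of 15 conserved positions) were searched in the 3 forward frames of GENCODE M21 transcripts; promoters are from RefSeq (GRCm38.p6).

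Genes named are the 8 largest rises and falls per comparison among genes that passed without overlap between the libraries and with at least 20 normalized reads in the higher group, the 6 most abundant per kb, the most abundant of each cluster of 5 or more, and the cofactors and HUSH genes that passed anywhere, beside those said to be chosen after their values were seen. The genes described, the lists and the tests were chosen with earlier results of these data known. Deviations of same-numbered libraries from their group means had correlations of −0.10 to 0.20 over all genes tested. The highest were 0.195 and 0.178, for replicates 1 and 2 of LPS with NCT503 and LPS. Numbers were not used as pairs, and whether they mark pairs is not stated in the labels.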

Additional observations from a re-analysis of the deposited data

How the results depend on the processing

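The medians of the clustered Zfp genes kept their sign in all 3 comparisons under every alternative run. With LPS against control the median was −0.65 with a pseudocount of 10, −1.58 under CPM and −0.69 under quantile normalization, and CPM gave 4 higher and 142 lower. With NCT503 against LPS it was 0.36 with a pseudocount of 10, 0.81 under CPM and 0.375 under quantile normalization, with 3 lower under CPM. Against control, LPS with NCT503 had 8 higher and 82 lower under CPM and a median of −0.83. CPM moves the median of all genes to −0.68, 0.30 and −0.36 in the 3 comparisons; relative to all genes the clustered Zfp genes lay at −0.90, 0.51 and −0.46 under CPM, at −0.58, 0.40 and −0.27 under quantile normalization and at −0.87, 0.50 and −0.46 as reported.

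Leaving out each library in turn gave 6 to 10 higher, 60 to 104 lower and medians of −1.06 to −0.87 with LPS, 21 to 63 higher, 3 to 7 lower and 0.52 to 0.74 with NCT503, and 10 to 30 higher, 27 to 48 lower and −0.46 to −0.32 in LPS with NCT503 against control. With a replicate block the counts were 13 higher and 107 lower, 64 higher and 8 lower, and 18 higher and 44 lower in the same order. Over all genes 24.0% rose and 24.7% fell with the block, 21.5% and 19.9%, and 20.7% and 19.9%. In the labels the libraries share only a number.

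Changes of sign are listed only for named genes that passed in the reported fit or in the alternative, so the list is not complete. Under CPM the fold change of LPS over control turned negative for Zfp429 (−0.011), Zfp568 (−0.027), Zfp865 (−0.35), Zfp628 (−0.13), Zfp771 (−0.042), Chd4 (−0.62) and Morc3 (−0.13), and under quantile normalization for Chd4 (−0.77) and Ehmt2 (−0.064). Restricting to genes without exon overlap or with at most 10% of windows in other genes (the window rule was chosen after seeing the data) moved no median by more than 1.5 times. Low reads limit single genes: 46 of 176 averaged under 20 normalized reads.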
